A study of Homo sapiens with 4 samples.

Results

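Transcripts of the plasminogen activator system were followed in bulk poly(A) RNA of Panc1, an established line of human pancreatic duct carcinoma cells. The genes described are PLAU, PLAT, PLAUR, SERPINE2, SERPINB2, SERPINB6, ANXA2 and S100A10, which are 8 of the 54628 genes counted and were found by their symbol in the deposited tables. The 4 libraries were 2 labelled as treated with a small interfering RNA (siRNA) to HMGB2, whose product is a DNA-bending nuclear protein, and 2 labelled as treated with scramble siRNA. No other treatment, genotype or time is given in the labels, and whether libraries of a group came from separate cultures is not stated, so the p-values reflect only how far these libraries varied, possibly for technical reasons. HMGB2 itself had 4021 and 2746 counts under the HMGB2 siRNA label and 346 and 319 counts under the scramble label, which goes against the labels. The count columns of all 4 tables were also headed with the other treatment. Every direction below is therefore that of the libraries labelled HMGB2 siRNA, where HMGB2 was high, against the libraries labelled scramble, where HMGB2 was low.

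Plasminogen is a circulating zymogen that is cut to plasmin, a serine protease that dissolves fibrin and degrades extracellular matrix. Urokinase (PLAU) and tissue plasminogen activator (PLAT) make this cut, urokinase mostly while bound to its receptor (PLAUR) on the cell surface. Serpins such as SERPINE2 and SERPINB2 trap the activators, and the annexin A2 and S100A10 complex is a docking site for plasminogen. In pancreatic carcinoma the system is known for its part in invasion.

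Promoter sequences are printed for the only tested gene of the 8 that was called, SERPINE2, and for ANXA2 and S100A10, whose proteins form a single complex and whose transcripts are compared below. They run from 250 bases before to 50 bases after a transcript start, 5′ to 3′ on the gene's strand, from RefSeq on GRCh38.p14, and all 4 starts coincide with an exon start of the deposited tables. Capitals mark matches on either strand to 5 motifs. The AP-1 word was TGA, any 1 base and then TCA. The TATA box was searched as TATAAA, near which transcription often starts. For the GC box, a binding word of Sp1, the letters GGGCGG were used. The CCAAT box, bound by the factor NF-Y, was searched by the letters of its name. The E-box, bound by basic helix-loop-helix factors, was taken as CACGTG. SERPINE2 has a pair of starts in the table, at chr2:224031429-224031728 and chr2:224038591-224038890, both on the minus strand. ANXA2 is at chr15:60397937-60398236 and S100A10 at chr1:151993810-151994109, both on the minus strand.
SERPINE2, downstream start: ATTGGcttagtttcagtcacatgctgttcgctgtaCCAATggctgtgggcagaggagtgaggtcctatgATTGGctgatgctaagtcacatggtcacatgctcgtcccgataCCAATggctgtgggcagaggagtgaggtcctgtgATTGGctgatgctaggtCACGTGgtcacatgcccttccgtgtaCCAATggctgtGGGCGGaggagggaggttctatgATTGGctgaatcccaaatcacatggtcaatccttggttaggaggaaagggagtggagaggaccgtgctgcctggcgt
SERPINE2, upstream start: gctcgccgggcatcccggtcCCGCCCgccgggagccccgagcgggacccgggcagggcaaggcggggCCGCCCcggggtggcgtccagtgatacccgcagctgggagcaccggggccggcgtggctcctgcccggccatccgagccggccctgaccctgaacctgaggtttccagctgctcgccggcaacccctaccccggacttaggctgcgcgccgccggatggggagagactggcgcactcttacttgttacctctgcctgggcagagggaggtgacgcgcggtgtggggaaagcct
ANXA2: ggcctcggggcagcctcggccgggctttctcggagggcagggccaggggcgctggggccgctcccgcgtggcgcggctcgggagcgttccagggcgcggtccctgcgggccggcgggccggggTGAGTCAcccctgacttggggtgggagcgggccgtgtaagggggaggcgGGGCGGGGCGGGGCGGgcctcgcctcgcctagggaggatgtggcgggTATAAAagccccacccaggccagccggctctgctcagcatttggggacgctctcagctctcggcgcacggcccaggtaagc
S100A10: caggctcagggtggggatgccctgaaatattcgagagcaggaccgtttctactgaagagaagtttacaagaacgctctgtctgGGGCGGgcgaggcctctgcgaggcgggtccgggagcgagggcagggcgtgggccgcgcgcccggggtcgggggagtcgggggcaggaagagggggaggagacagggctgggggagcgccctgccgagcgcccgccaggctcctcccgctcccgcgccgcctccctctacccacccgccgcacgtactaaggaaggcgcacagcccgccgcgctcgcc

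The downstream SERPINE2 promoter held 7 CCAAT words, 3 on the gene's strand and 4 on the other, 1 E-box at -87 to -82 from the start and 1 GC box. The CCAAT words on its strand, at -215 to -211, -138 to -134 and -61 to -57, lie in repeats of a similar stretch. The 7 words are therefore not separate occurrences in unlike sequence. At least 1 CCAAT word was present in 34.6% and at least 1 E-box in 7.26% of the 35116 promoters of this length in the table. These shares do not say how common 7 words are. The upstream SERPINE2 promoter had 73.7% G and C and no match other than 2 GC boxes, against 54% G and C in the first. Counts per gene do not show which of these starts was in use. The ANXA2 promoter held an AP-1 word at -127 to -121, 3 overlapping GC boxes and a TATA box at -31 to -26, while the S100A10 promoter held 1 GC box and no TATA box. AP-1 words were present in 7.71%, TATA boxes in 11.5% and GC boxes in 45% of all promoters. Of the 12 promoters listed for 7 of the 8 genes, 3 held an AP-1 word (ANXA2, PLAUR and SERPINB2). A TATA box was held by 3, a GC box by 8, a CCAAT word by 2 and an E-box by 1. The TATA match in promoter 4 of SERPINB6 lies across the start, at -1 to 5. Promoters 2 and 3 of SERPINB6 overlap (chr6:2971240-2971539 and chr6:2971227-2971526), and the same GC box is counted in both. These are matches of letters and not measured binding sites.

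Total gene counts were 31852391 and 20976561 under the HMGB2 siRNA label and 21874647 and 20340695 in those labelled scramble. HMGB2 had 131 ± 4.2 against 15.5 ± 0.29 CPM (counts relative to a TMM-scaled library total, in the usual CPM unit; SD, n = 2 each), so HMGB2 was higher by 3.07 ± 0.08 (SE) on the log2 scale. The adjusted p of the quasi-likelihood test in edgeR was 1.54e-33, with the Benjamini-Hochberg method over all genes tested. All 5 markers of a pancreatic duct carcinoma line (KRT7, KRT8, KRT18, KRT19 and EPCAM) were tested, with EPCAM at 16.6 to 18.5 CPM in every library. The keratins 7, 8 and 19 (3 of 5 markers) were called higher, against 16.7% of all genes tested. KRT7 had a mean of only 3.75 CPM, and KRT8 was not called by DESeq2. The calls of KRT7 and KRT19 were not examined under other settings. Of 19 markers of leukocytes, red cells, endothelium, fibroblasts, hepatocytes and other pancreatic cells, 7 had no reads in any library, 5 were tested and 1 (PDGFRB) was called higher, and the leukocyte gene PTPRC had 0 to 1 counts. Their part in the results below was not tested. The sum of these markers was 167 and 173 CPM against 200 and 155 CPM, so the groups overlapped, and most of it was CD68 (98.7 to 121 CPM) and COL1A1 (55.2 to 76.7 CPM).

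**Figure D1:**
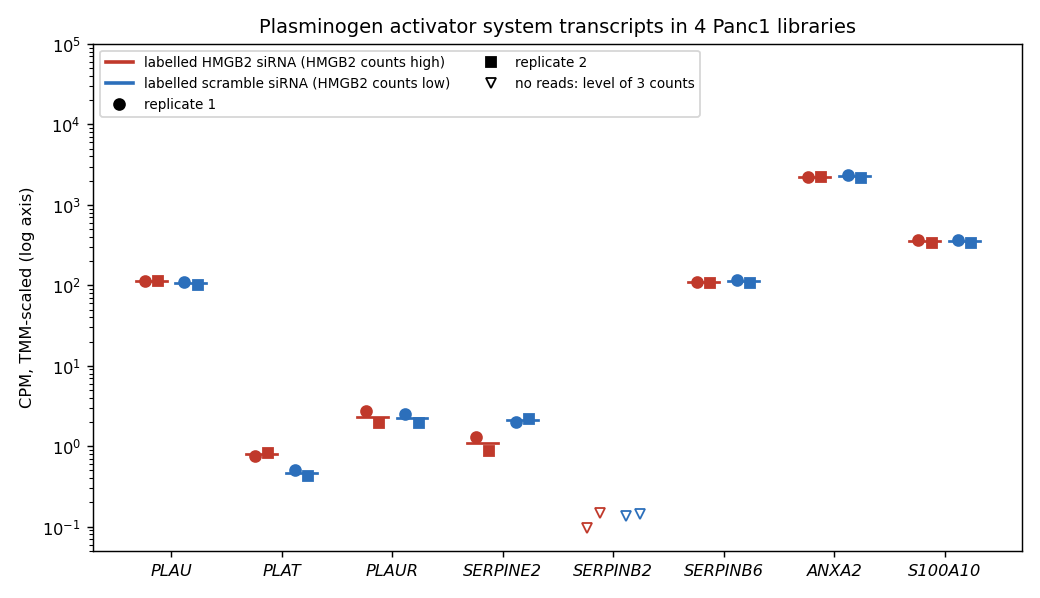
Abundance of the 8 transcripts in each library, in CPM on a log axis. Points are libraries, short lines are group means (n = 2), and open triangles mark the level that 3 counts would give where no read was found. ANXA2 lies at 2175 to 2366 CPM, PLAT and SERPINE2 lie near 1 CPM with groups that do not overlap, and SERPINB2 had 0 counts throughout.

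The 8 transcripts differed widely in abundance. By counts alone ANXA2 ranked 29 and S100A10 ranked 404 among the 15161 genes tested, and PLAU and SERPINB6 ranked 2106 and 2067. PLAUR, SERPINE2 and PLAT ranked 11871, 12451 and 14249, and SERPINB2 had no reads. Levels of different genes were set side by side per length, as RPKM (CPM per kilobase of the exonic length in the tables). The order was S100A10 at 524 RPKM, ANXA2 at 424, PLAU at 39.5, SERPINB6 at 20.6, PLAUR at 0.729, SERPINE2 at 0.496 and PLAT at 0.206 RPKM (means of 4 libraries). The ranges of neighbours in this order did not overlap between libraries, except those of PLAUR (0.620 to 0.860 RPKM) and SERPINE2 (0.273 to 0.686 RPKM), and those of SERPINE2 and PLAT (0.141 to 0.271 RPKM) nearly met. The place of ANXA2 depends on the length used, because its exonic length of 5266 bases in the tables unites many variants. With the principal transcript of GENCODE (1676 bases for ANXA2 and 1202 for S100A10), ANXA2 stood at 1333 RPKM and S100A10 at 292 RPKM, and their order turned. PLAUR and SERPINE2 then no longer overlapped, at 1.26 to 1.75 and 0.400 to 1.01 RPKM. The labels give bulk RNA, in which fewer cells with a transcript and less of it per cell cannot be told apart.

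Of the 8 genes, 7 had enough reads to be tested, and SERPINB2 did not. Among these 7, 0 were called higher in the libraries labelled HMGB2 siRNA (HMGB2 4021 and 2746 counts, against 346 and 319), 1 was called lower and 6 were not called (edgeR quasi-likelihood test, adjusted p under 0.05). Over all genes tested 30.8% were called, 16.7% higher and 14.1% lower. Among genes with a mean of at least 100 CPM 40.4% were called, and among those under 5 CPM 12.6%. PLAU, SERPINB6, S100A10 and ANXA2 belong to the first class and 0 of these 4 were called. PLAUR, PLAT and SERPINE2 belong to the second, and the called gene, SERPINE2, was among them. The median log2 fold change over the 7 genes was -0.0037, against -0.0063 over all genes tested. For 3 of the 7 (PLAU, PLAT and SERPINE2) both libraries of a group lay above both of the other, a pattern found in 63.7% of all genes tested. By DESeq2, which gave no adjusted p for PLAT, 0 of these genes were called. By edgeR 1 of the 7 had an unadjusted p under 0.05.

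**Figure D2:**
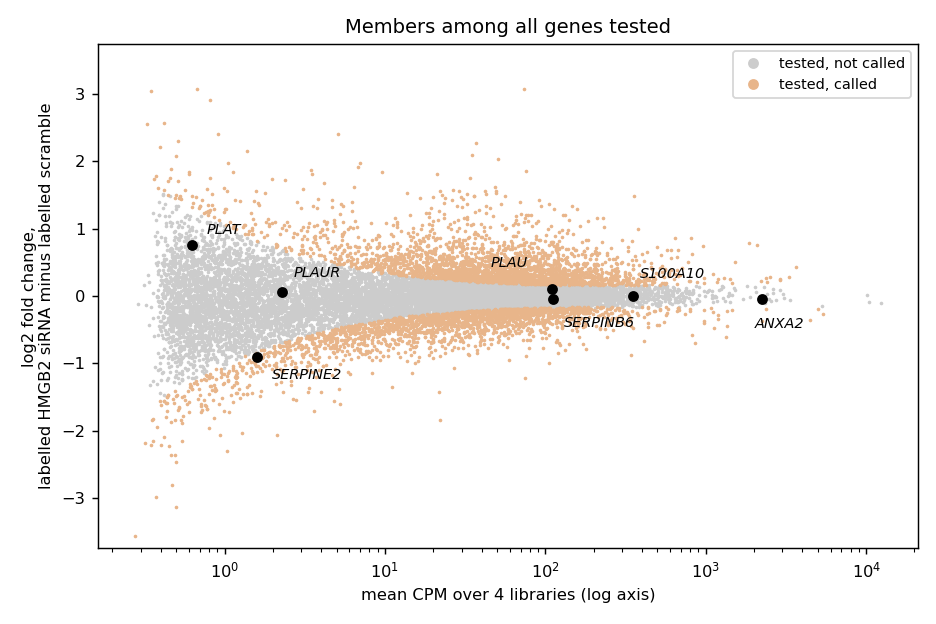
Log2 fold change (labelled HMGB2 siRNA minus labelled scramble) against mean CPM on a log axis for the 15161 genes tested. Black points are the 7 tested genes of the plasminogen activator system. The 4 abundant ones lie between -0.05 and 0.10, and SERPINE2 at -0.90 is the only one among the called genes.

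The activator genes showed no called difference. PLAU, which encodes urokinase (GRCh38 chromosome 10, 73909182 to 73917497, plus strand), had 3560 and 2331 counts under the HMGB2 siRNA label and 2414 and 2111 counts in those labelled scramble. This was 113 and 114 CPM against 110 and 101 CPM. The groups did not overlap, but the lower of the first pair and the higher of the second differed by less than the scramble libraries did from each other. The log2 fold change was 0.10 ± 0.07 (SE), with a 95% interval from -0.03 to 0.24 and an adjusted p of 0.257 by edgeR, so a change of more than 1.18-fold upward lay outside the interval. Without scramble replicate 1 the value was 0.17 and PLAU was called higher (adjusted p = 0.0347 by edgeR), and without the other libraries it was not. PLAU shares 820 bases, 29.6% of its exonic length, with C10orf55 on the opposite strand. C10orf55 itself was given only 35 and 43 against 45 and 20 counts, and the strand setting of the counting is not given in the sources used here.

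PLAT, which encodes tissue plasminogen activator, was near the limit of the counting. It had 24 and 17 counts under the HMGB2 siRNA label (HMGB2 4021 and 2746) and 11 and 9 counts in those labelled scramble (HMGB2 346 and 319). This was 0.763 and 0.828 against 0.500 and 0.432 CPM, and the groups did not overlap. The log2 fold change of 0.76 ± 0.49 (SE) had a 95% interval from -0.22 to 1.74 and an adjusted p of 0.250 by edgeR. As a fold the interval ran from 0.862 to 3.34, so at this depth neither no change nor a much higher level was outside it. In every library PLAU exceeded PLAT by far, with an RPKM ratio of 164 and 151 under the HMGB2 siRNA label and 242 and 259 in those labelled scramble. These ratios rest on 9 to 24 PLAT counts per library, and their difference between the groups was not tested.

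PLAUR, the glycolipid-anchored urokinase receptor (chromosome 19, 43646095 to 43670197, minus strand), was lowly represented. It had 85 and 40 counts under the HMGB2 siRNA label and 56 and 41 counts in those labelled scramble, which was 2.70 and 1.95 against 2.54 and 1.97 CPM. Replicate 1 was the higher library in both groups and the groups overlapped. The log2 fold change was 0.07 ± 0.27 (SE; adjusted p = 0.886 by edgeR), with a 95% interval from -0.48 to 0.62, and its sign turned without HMGB2 siRNA replicate 1 (-0.21) and without scramble replicate 2 (-0.10). The RPKM ratio of urokinase to its receptor was 47.5 and 66.1 against 48.9 and 58.4, with overlapping groups. With principal transcript lengths it was 27.9 and 38.9 against 28.8 and 34.3, so its level depended on the length used and the groups overlapped with either.

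The docking complex of plasminogen held the most abundant transcripts of the set, and neither was called. ANXA2, a calcium-dependent membrane-binding protein (chromosome 15, 60347151 to 60398025, minus strand), had 68944 and 45154 counts under the HMGB2 siRNA label and 52087 and 45313 counts in those labelled scramble. This was 2193 and 2200 against 2366 and 2175 CPM, so the scramble libraries enclosed the other pair. Its log2 fold change was -0.05 ± 0.07 (SE; adjusted p = 0.655 by edgeR), with a 95% interval from -0.19 to 0.09. S100A10, the small partner that binds the amino-terminal end of annexin A2 (chromosome 1, 151982915 to 151993859, minus strand), had 11392 and 6970 against 8035 and 7065 counts. This was 362 and 340 against 365 and 339 CPM, again with the scramble libraries enclosing the other pair. Its log2 fold change was -0.0037 ± 0.065 (SE; adjusted p = 0.977 by edgeR), with a 95% interval from -0.13 to 0.13. The intervals put changes of more than 1.14-fold in either direction outside for ANXA2, and of more than 1.10-fold for S100A10. These limits are those of TMM scaling with all libraries and move with the scaling. With upper-quartile factors the log2 fold change was -0.098 ± 0.067 (SE) for ANXA2 and -0.054 ± 0.064 (SE) for S100A10. Genes with a mean of at least 100 CPM had a median absolute log2 fold change of 0.13.

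The RPKM ratio of S100A10 to ANXA2 was 1.30 and 1.21 under the HMGB2 siRNA label and 1.21 and 1.22 in those labelled scramble. With principal transcript lengths it was 0.230 and 0.215 against 0.215 and 0.217. The level of the ratio thus depended on the length used, while the groups overlapped with either. ANXA2 has processed pseudogenes that could take some of its reads. The transcript of ANXA2P2 in GENCODE was 98.4% identical to ANXA2 over 1020 aligned bases, and 59.2% of its windows of 50 bases also occurred in an ANXA2 transcript. ANXA2P2 was given 344 and 211 against 261 and 193 counts, a log2 fold change of 0.0091 ± 0.14 (SE; adjusted p = 0.972 by edgeR). ANXA2P1 was not called either (-0.12 ± 0.56 on the log2 scale, SE; adjusted p = 0.898 by edgeR). ANXA2P1 and ANXA2P3, at 93.6% and 91.4% identity, shared 8.1% and 0.73% of such windows.

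SERPINE2, or protease nexin-1, a secreted inhibitor of thrombin, urokinase and tissue plasminogen activator (chromosome 2, 223975045 to 224039286, minus strand), was the gene called lower. It had 41 and 18 counts under the HMGB2 siRNA label (HMGB2 4021 and 2746) and 44 and 46 counts in those labelled scramble (HMGB2 346 and 319). This was 1.30 and 0.877 against 2.0 and 2.21 CPM, and the groups did not overlap. The log2 fold change was -0.90 ± 0.33 (SE; adjusted p = 0.0282 by edgeR), a 1.87-fold lower level with an interval from 1.19-fold to 2.95-fold. The call rests on 149 reads in all. It was lost with DESeq2 (adjusted p = 0.202), in libraries thinned to the smallest total (edgeR adjusted p = 0.0628) and without HMGB2 siRNA replicate 1 (-1.25, adjusted p = 0.0555), HMGB2 siRNA replicate 2 (-0.68, adjusted p = 0.273) or scramble replicate 2 (-0.83, adjusted p = 0.107), while every alternative kept the value below 0.

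**Figure D3:**
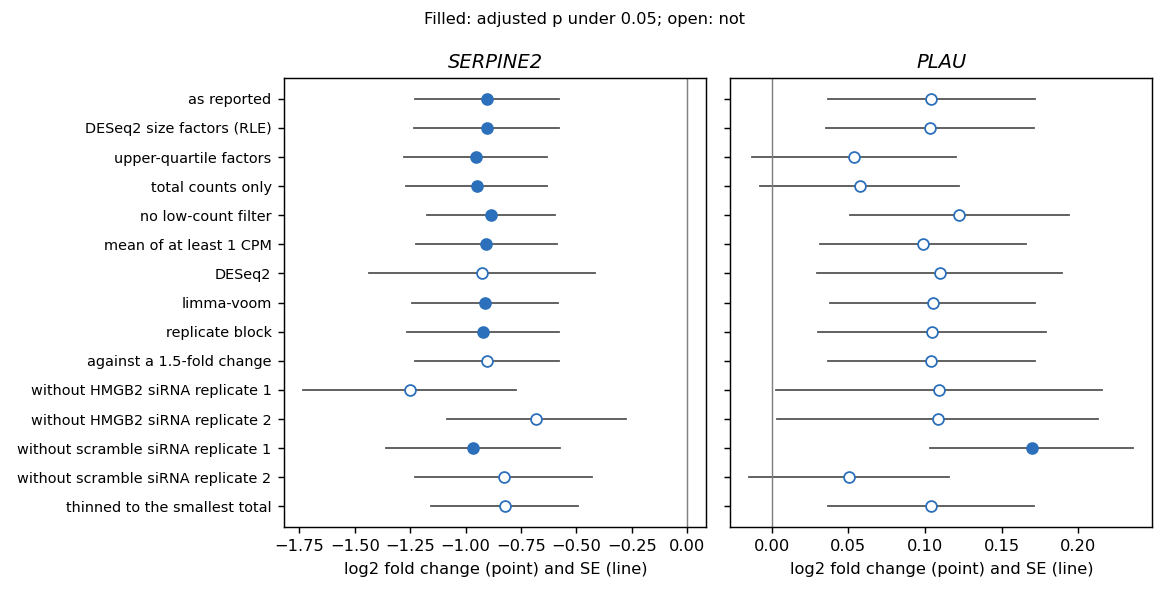
Log2 fold change of SERPINE2 and PLAU (points, lines are 1 SE) as reported and under each of 14 alternatives, with filled points for an adjusted p under 0.05. SERPINE2 stays below 0 in each and is filled in 9 of 15, and PLAU stays above 0 in each and is filled only without scramble replicate 1.

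The clade B serpins of the set differed in level. SERPINB6, an intracellular inhibitor of serine proteases (chromosome 6, 2948159 to 2971793, minus strand), had 3502 and 2221 counts under the HMGB2 siRNA label and 2586 and 2251 counts in those labelled scramble. This was 111 and 108 against 117 and 108 CPM, with groups that overlapped. Its log2 fold change was -0.04 ± 0.07 (SE; adjusted p = 0.725 by edgeR), with a 95% interval from -0.17 to 0.10. SERPINB2, plasminogen activator inhibitor 2 (chromosome 18, 63887705 to 63903890, plus strand), had 0 counts in all 4 libraries, which allows a level of up to 0.0954 to 0.146 CPM per library (3 counts, a limit for counting error only). No fold was computed for SERPINB2.

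The genes whose centred log2 CPM lay closest to that of SERPINE2 over the 4 libraries, among 10583 with a mean of at least 5 CPM, were C2orf72, ZNF124 and BMP8B. Their Euclidean distances were 0.119, 0.172 and 0.200. ZNF124 had 7.67 and 5.85 CPM under the HMGB2 siRNA label (HMGB2 high) and 12.7 in each library labelled scramble. C2orf72 had 3.98 and 2.92 against 6.77 and 7.34 CPM, and BMP8B had 4.68 and 3.12 against 7.63 and 6.96 CPM. In each of these, as in SERPINE2, HMGB2 siRNA replicate 2 was the lowest library. Over 4 libraries such likeness is a description only.

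Other genes of the pathway and of the same families were taken from lists. Of 75 such genes 42 were tested, 7 were called higher and 5 lower under the HMGB2 siRNA label (HMGB2 4021 and 2746 counts, against 346 and 319), and 30 were not called, which is close to the share of all genes tested. Their median log2 fold change was 0.08.

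Among 7 other inhibitors 1 was tested and 0 were called. SERPINI1, neuroserpin, an inhibitor of tissue plasminogen activator, had 61 and 38 counts under the HMGB2 siRNA label and 44 and 32 counts in those labelled scramble, with groups that overlapped in CPM. Its log2 fold change was 0.10 ± 0.30 (SE; adjusted p = 0.838 by edgeR), and 90 bases of it overlap PDCD10 on the opposite strand.

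**Figure D4:**
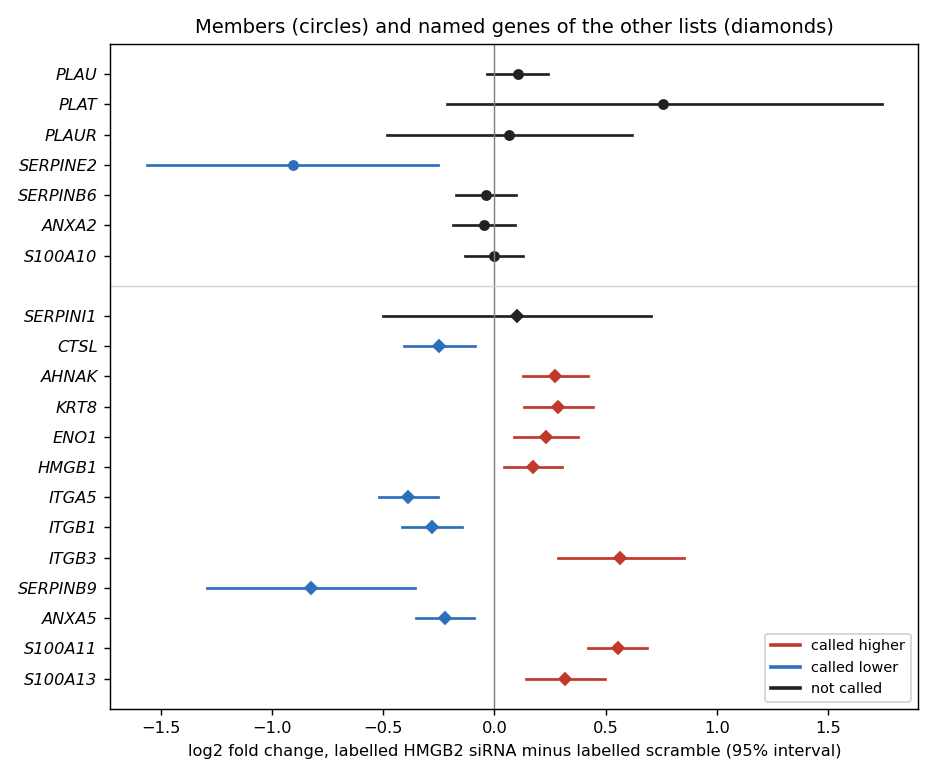
Log2 fold changes with 95% intervals for the 7 tested genes of the system (circles) and for 12 called genes of the other lists and SERPINI1 (diamonds), labelled HMGB2 siRNA minus labelled scramble. The intervals of ANXA2, S100A10, SERPINB6 and PLAU include 0 and are narrow, those of PLAT and PLAUR are wide, and that of SERPINE2 lies below 0.

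Of 7 genes for plasminogen and the proteases that cut it or pro-urokinase, 4 were tested. Of the 4, 1 was called, against 30.8% of all genes tested, and their median log2 fold change was -0.15. The called gene was cathepsin L (CTSL), a lysosomal protease, at 47.0 and 55.6 against 61.3 and 60.0 CPM and a log2 fold change of -0.25 (adjusted p = 0.0127 by edgeR). CTSL was not called without HMGB2 siRNA replicate 1 (-0.12, adjusted p = 0.566 by edgeR) or by DESeq2 (adjusted p = 0.0953). Plasminogen itself (PLG) had 4 and 6 against 7 and 7 counts and was too low to test.

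All 7 other plasminogen binding sites or partners were tested, and 4 were called higher and 0 lower under the HMGB2 siRNA label (HMGB2 high). Their median log2 fold change was 0.17. Over all genes tested 16.7% were called higher. The 4 called genes had means of 560 to 2919 CPM, and among genes with at least 100 CPM 40.4% were called in either direction. AHNAK, a giant scaffold protein that binds the annexin A2 complex, had 2396 and 2765 against 2018 and 2250 CPM, a log2 fold change of 0.27 (adjusted p = 0.00272 by edgeR). Keratin 8 (KRT8) had 0.29, and enolase 1 (ENO1), a glycolytic enzyme also found at the cell surface, had 0.23. HMGB1, the paralog of HMGB2 that can bind plasminogen outside the cell, had 0.17. These calls did not hold under every alternative. By DESeq2 AHNAK (0.28, adjusted p = 0.000918), ENO1 (0.24, adjusted p = 0.00174) and HMGB1 (0.18, adjusted p = 0.0151) stayed called. Without HMGB2 siRNA replicate 2, AHNAK stood at 0.17, ENO1 at 0.24 and HMGB1 at 0.16, with edgeR adjusted p of 0.275, 0.100 and 0.338. Without HMGB2 siRNA replicate 1, ENO1 (0.23, adjusted p = 0.122 by edgeR) and HMGB1 (0.20, adjusted p = 0.204) were not called. Without scramble replicate 2, KRT8 (0.11), ENO1 (0.15) and HMGB1 (0.13) were not called, with edgeR adjusted p of 0.145, 0.0526 and 0.0737. By DESeq2 KRT8 was not called (0.29, adjusted p = 0.297). HMGB1 was also not called by edgeR with upper-quartile factors (0.12, adjusted p = 0.146), with total counts only (0.12, adjusted p = 0.106) or in thinned libraries (0.16, adjusted p = 0.0581). KRT8 shares 135 exonic bases with KRT18 on the opposite strand.

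Among 13 clearance receptors and co-receptors, 11 were tested. Of the 11, 1 was called higher and 2 lower, against 16.7% higher and 14.1% lower over all genes tested. The median log2 fold change of the 11 was 0.10. The integrin subunits ITGA5 and ITGB1, which together form a fibronectin receptor and associate with the urokinase receptor, were lower under the HMGB2 siRNA label (HMGB2 high). ITGA5 had 151 and 150 against 204 and 190 CPM, a log2 fold change of -0.39 (adjusted p = 5.02e-06 by edgeR). ITGB1 had 1079 and 1078 against 1264 and 1357 CPM, a log2 fold change of -0.28 (adjusted p = 0.000821 by edgeR). ITGB1 was not called without HMGB2 siRNA replicate 1 (-0.28, adjusted p = 0.0545) or without replicate 2 of that label (-0.27, adjusted p = 0.0511 by edgeR). The subunit ITGB3 was higher, at 10.8 and 14.5 against 8.95 and 7.92 CPM, with a log2 fold change of 0.57, and not called without HMGB2 siRNA replicate 2 (0.37, adjusted p = 0.161 by edgeR). The uptake receptors LRP1 (0.17), MRC2 (0.13) and IGF2R (-0.08) were not called.

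In the families of the members, the relatives included called genes. Of 18 other S100 genes 9 were tested, 2 were called higher and 0 lower, against 16.7% higher and 14.1% lower over all genes tested. The median log2 fold change of these S100 genes was 0.15. S100A11, whose gene is also on chromosome 1 (152032506 to 152037004), had 236 and 259 CPM under the HMGB2 siRNA label and 173 and 164 CPM in those labelled scramble. It was 1.47-fold higher (adjusted p = 2.04e-09 by edgeR), and the groups did not overlap. S100A13 had 0.32 on the log2 scale and was not called without either library labelled HMGB2 siRNA (0.35, adjusted p = 0.05002 without replicate 1, and 0.30, adjusted p = 0.0901 without replicate 2, by edgeR). S100A13 shares 278 bases, 12.1% of its exonic length, with CHTOP on the opposite strand, which had 2591 and 1732 against 1993 and 1820 counts. Of 12 other annexins 7 were tested, and ANXA5 alone was called, at -0.22. ANXA5 was not called without HMGB2 siRNA replicate 1 (-0.21), HMGB2 siRNA replicate 2 (-0.22) or scramble replicate 1 (-0.13), with edgeR adjusted p of 0.173, 0.129 and 0.0721. Of 11 other clade B serpins 3 were tested and SERPINB9, the granzyme B inhibitor, was called lower, with 2.13 and 2.53 against 3.86 and 4.32 CPM and a log2 fold change of -0.82 (adjusted p = 0.00493 by edgeR). SERPINB9 was not called without HMGB2 siRNA replicate 1 (-0.69, adjusted p = 0.123 by edgeR) or by DESeq2 (adjusted p = 0.0896).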

How the data were processed

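The 4 libraries, 2 per labelled group, hold poly(A) RNA of Panc1. The deposited values are unnormalized counts of reads per gene, 1 table per library, summed over the exons listed, per the file headers. STAR, SAMtools 1.9, featureCounts of Subread 1.6.3 and DESeq2 and the hg38 (GRCh38) build are named, per the submitters' processing notes. How strand, multimapping and overlaps were set is not given in the sources used here. Tables were joined to samples by the deposit's own record and grouped by sample label. Total counts were 20340695 to 31852391 per library.

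All 54628 genes entered 1 fit, and 15161 passed filterByExpr (smallest count 10, smallest total 15). The test was the quasi-likelihood test of edgeR 4.0.16 in R 4.3.3 with TMM scaling and the group as the only term, adjusted by the Benjamini-Hochberg method over all genes tested. SE and 95% intervals come from the same fit. In it the spread of each gene is moderated with that of the other genes (median of 48.9 total degrees of freedom). The p-values and intervals of a gene thus do not rest on its own 4 values alone. The procedure was tested on simulated data in which all changed genes were more abundant than SERPINE2 and PLAT. It therefore does not show how well changes in genes as low as these are found. Libraries of a group differed by more than sampling noise (chi-square per degree of freedom 2.93 and 5.23). A gene of the lists is not reported here. The members and lists were chosen with earlier results of these data known. Named were the 8 members, HMGB2, up to 4 called genes per list with the smallest p (where none was called, the 2 most abundant as values), and the 3 genes nearest to a called member. PLG, LRP1, MRC2, IGF2R and the cell type markers were named after their values were seen. Alternatives were other scalings, filters, DESeq2 1.42.0, limma 3.58.1 (voom), a replicate block, a 1.5-fold threshold, thinned libraries and each library left out. Promoters came from RefSeq (GRCh38.p14) and transcripts from GENCODE. Scripts used Python 3.11.15 and matplotlib 3.10.9.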

Additional observations from a re-analysis of the deposited data

How the results depend on the processing

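HMGB2 stayed called under all 14 alternatives (3.02 to 3.11 on the log2 scale). The log2 fold change of SERPINE2 was not called with DESeq2 (-0.92), against a 1.5-fold change (-0.90) and in thinned libraries (-0.82), and ranged from -1.25 to -0.68 with 1 library left out. Members called lower were then 0 in each of these 3 alternatives and 0 to 1 with 1 library left out, and members called higher 0 to 1. With 1 library left out, PLAU ranged from 0.051 to 0.17, PLAUR from -0.21 to 0.28 (with -0.10 without scramble replicate 2), SERPINB6 from -0.094 to 0.032, ANXA2 from -0.10 to 0.021 and S100A10 from -0.053 to 0.058 (with 0.048 without HMGB2 siRNA replicate 2). S100A10 also turned in sign without a low-count filter (0.015) and with DESeq2 (0.0015), so no direction is given for it. SERPINI1 ranged from -0.069 to 0.31 with 1 library left out. PLAT had no value with a minimum of 1 CPM or with DESeq2.

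Over all genes, 2536 were called higher and 2135 lower. A 1.5-fold threshold left 213 and 45, DESeq2 called 1055 lower, and with 1 library left out 1481 to 2904 were higher and 903 to 2291 lower. The share of calls that were higher was 54.3%, 42.0% with upper-quartile factors (2035 higher, 2809 lower) and 43.3% with total counts only (2015 and 2641). In the other lists a 1.5-fold threshold left 0 higher and 0 lower, and leaving out 1 library gave 2 to 15 higher and 1 to 8 lower, against 7 and 5. DESeq2 called 3 of them lower. The replicate block called 2446 higher and 2011 lower and ended the call of HMGB1 (0.17, adjusted p = 0.0648), and no other call among HMGB2, SERPINE2 and the called genes drawn from the other lists. It was not examined for KRT7, KRT19, PDGFRB and the genes nearest to SERPINE2. Same-numbered libraries did not deviate together (correlation -0.014 across genes). With 2 libraries per group this cannot show whether they shared a culture or a preparation.

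With the length of the principal transcript, added after seeing the data, mean RPKM was 47.2 for PLAU, 1.48 for PLAUR, 0.233 for PLAT, 0.728 for SERPINE2, 19.8 for SERPINB6, 292 for S100A10 and 1333 for ANXA2. Depth limits PLAT, PLAUR and SERPINE2, with 61, 222 and 149 counts in all.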
